A study of Mus musculus with 22 samples.

Results

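Entry of a cell into S phase is set in G1 by the D-type cyclins, their partner kinases CDK4 and CDK6, the inhibitors that bind these kinases, and the retinoblastoma protein that the kinases phosphorylate. Phosphorylated RB releases E2F factors, which switch on genes of DNA replication. INK4 inhibitors (products of Cdkn2a and Cdkn2c) bind CDK4 and CDK6, whereas CIP/KIP inhibitors (Cdkn1a and Cdkn1b) act on a wider range of cyclin complexes. In the thymus, D3 is the cyclin known to drive the expansion of cells that have passed beta selection, and CD4+CD8+ double-positive (DP) cells are mostly resting descendants of that expansion. The 10 genes described here were listed by symbol: Ccnd1, Ccnd2, Ccnd3, Cdk4, Cdk6, Cdkn1a, Cdkn1b, Cdkn2a, Cdkn2c and Rb1. All 10 were found among the 43430 genes of the series.

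The study measured transcripts by RNA-seq in sorted CD45.1+ CD4+CD8+ mouse thymocytes with and without E2a, the gene (symbol Tcf3) of the E proteins E12 and E47. The genotype of all 22 libraries includes E2aF/F, floxed E2a, and WT stands for E2aF/F animals with no Cre named. VcKO mice carried VavCre, active throughout blood lineages, and LcKO mice carried LckCre, active in T lineage cells. TPT mice were VavCre E2aF/F animals that received sublethal irradiation and wild-type competitor marrow, and their thymocytes were taken 4 weeks later. In TPT against WT, loss of E2a, irradiation and marrow transfer therefore cannot be told apart. At 8 weeks there were 4 TPT, 3 VcKO and 3 WT libraries. At 4 weeks there were 3 VcKO and 3 WT libraries of the Vav line and 3 LcKO and 3 WT libraries of the Lck line. The labels do not say which cells of TPT mice carried CD45.1, and do not tie a library to an animal, so p-values here measure the spread between libraries.

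Values are FPKM (fragments mapped, divided by gene length in kilobases and by library depth), so levels of different genes can be set side by side per length. Differences are on the log2(FPKM + 1) scale, which understates changes of low genes. A gene was called when limma's Benjamini-Hochberg adjusted p over all genes tested was under 0.05, and a gene entered a test when 3 libraries of the table had 1 FPKM or more. TPT and VcKO at 8 weeks were set against the same 3 WT libraries.

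Tcf3 read 1.21 to 2.32 FPKM in TPT, 1.23 to 2.13 in VcKO and 7.49 to 7.59 in WT at 8 weeks. At 4 weeks it read 1.15 to 1.39 FPKM in VcKO against 6.39 to 7.47 in WT, and 1.20 to 1.33 in LcKO against 6.98 to 8.22 in WT. Every library therefore went with its label. Depth implied by the smallest FPKM steps lay between 5.49 and 37.5 M reads per library (M stands for 1e6). It was 31.1 to 37.5 M in the 4-week Vav libraries and 10.8 to 21.1 M in the 8-week libraries. These ages came in separate tables, so age and table cannot be told apart. All 8 DP markers were above 0 in every library. At 8 weeks their summed FPKM was 1296 to 3204 in TPT, highest in replicate 3, 1901 to 2192 in VcKO and 4091 to 4440 in WT. Rag1 and Rag2 were called lower in both TPT and VcKO. At 4 weeks the sum was 3008 to 3656 FPKM in VcKO against 4145 to 4248 in WT, and 3767 to 3897 in LcKO against 4107 to 4204 in WT. Of the 8 markers, 4 were called lower in VcKO at 4 weeks (13.7% of all genes were called) and 1 in LcKO (1% of all genes). At 8 weeks the summed early (double-negative) thymocyte markers, mostly Il2ra where high, were 70.5, 130.7, 32.3 and 3.89 FPKM in TPT replicates 1 to 4. In VcKO they summed to 6.18 to 25.4 FPKM, against at most 3.51 in WT. Mature T cell markers summed to 199.7, 135.4, 85.2 and 97.5 FPKM in the same TPT libraries, 61.45 to 96.4 in VcKO and 80.75 to 85.1 in WT. At 4 weeks the early markers summed to 14.1 to 31.6 FPKM in VcKO against at most 3.21 in WT. Of the 8 mature T cell markers, 6 were called higher in VcKO at that age. Of the 8 stroma and epithelium markers, 5 to 7 were above 0 at 8 weeks. They summed to 12.6 to 17.9 FPKM in TPT, 15.4 to 18.2 in VcKO and 9.03 to 9.80 in WT. Of the 3 that could be tested, Pecam1 was called higher in both. Pdgfrb averaged 2.11 FPKM in TPT and 2.62 in VcKO against 0.396 in WT. Epcam averaged 0.648 and 0.5665 FPKM against 1.23, and neither of these was called. Foxn1, which defines thymic epithelium, read 0 to 0.0193 FPKM in TPT, 0 to 0.0165 in VcKO and 0 to 0.0709 in WT. The 6 erythroid markers summed to 29.1 to 72.7 FPKM in TPT, 3.52 to 16.7 in VcKO and 14.2 to 31.8 in WT. TPT replicate 3 stood apart from the other TPT libraries. Its 18 S phase genes controlled by E2F summed to 260.2 FPKM, against 920 or more in the other TPT libraries, and its macrophage and granulocyte markers summed to 24.75 FPKM, against 1.64 to 5.15 in WT. In a bulk sample, fewer cells of a type and less RNA per cell cannot be told apart, and the part of these features in the values below was not tested.

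Promoter sequence is shown for Cdk4 and Cdk6, the D cyclin kinases, whose windows hold the same E box, and for Cdkn2a, whose separate starts matter to the reading of its FPKM. The windows are the RefSeq bases before the transcription start, 5′ to 3′ on the gene's strand, in GRCm38.p6, which is the mm10 build of the files. Capitals mark a match to one of the searched motifs. Each run starts at the 5′ end of the window and ends before the first base that GENCODE places in an exon of the gene. For Cdk6 this leaves 89 of 250 bases, so the run stops short of the start, and 193 bases of that window lie outside exons.
Cdk4, chr10:127063285-127063533, plus strand: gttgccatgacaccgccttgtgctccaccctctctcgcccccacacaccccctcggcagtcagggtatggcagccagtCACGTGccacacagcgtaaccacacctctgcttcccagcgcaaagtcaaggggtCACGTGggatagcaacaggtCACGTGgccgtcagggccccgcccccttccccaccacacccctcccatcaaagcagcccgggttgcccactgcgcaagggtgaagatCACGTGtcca
Cdk6, chr5:3343643-3343731, plus strand: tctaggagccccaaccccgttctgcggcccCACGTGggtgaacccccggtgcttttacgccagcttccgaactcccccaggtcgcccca
Cdkn2a, upstream start, chr4:89294654-89294869, minus strand: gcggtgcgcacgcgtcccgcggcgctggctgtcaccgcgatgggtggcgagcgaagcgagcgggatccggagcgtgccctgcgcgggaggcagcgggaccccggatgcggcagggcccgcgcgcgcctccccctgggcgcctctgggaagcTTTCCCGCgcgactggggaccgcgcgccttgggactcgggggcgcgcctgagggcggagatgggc

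The E box CANNTG (N any base) was searched on both strands in the 250 bases before each start, and 66.2% of 32851 mouse promoter windows hold at least 1. Cdk4 held 4, as 3.84% of the windows do with 4 or more, and Cdk6 held 1. All 5 read CACGTG, the form known to be bound by MYC and MAX. CACGTG was looked up after these matches had been seen: 6.02% of windows hold it, and 7 windows hold 4 or more. The E protein forms CAGCTG (13% of windows) and CACCTG (17.2%) were searched on both strands, and each also matches CANNTG. The second start of Cdkn1a held 1 CACCTG form, and no other window of the 7 listed genes held either. Of the E2F forms TTTGGCGC (0.417% of windows), TTTCCCGC (0.895%) and TTTCGCGC (0.256%), searched on both strands, the upstream start of Cdkn2a held 1 TTTCCCGC. That start gives the ARF transcript and a second start downstream gives the INK4A transcript, which share exons, and a gene-level FPKM does not separate them. Promoters of Ccnd1, Ccnd2 and Rb1 are not shown.

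In VcKO thymocytes at 8 weeks the most abundant of the 10 transcripts per length were Ccnd3 and Cdk4, whose ranges overlapped at 35.2 to 49.6 and 25.5 to 46.0 FPKM. Cdkn1b, which codes for the inhibitor p27, averaged 27.9 ± 1.11 FPKM (SD, n = 3). Cdk6, Rb1 and Cdkn2c, which codes for the INK4 inhibitor p18, overlapped between 12.5 and 22.8 FPKM, and Ccnd2 was the lowest of the 10 at 0.195 ± 0.0880 FPKM. In WT thymocytes of that age Ccnd3 led at 80.8 ± 10.2 FPKM (SD, n = 3), followed by Cdkn1b at 54.1 ± 3.18. Rb1 at 26.7 ± 0.731 FPKM and Cdkn2c at 25.5 ± 1.40 came next, with libraries that overlapped, then Cdk4 at 14.3 ± 0.446 and Cdk6 at 5.68 ± 0.623 FPKM. Ccnd2 at 1.15 ± 0.0266 and Cdkn1a, which codes for p21, at 0.899 ± 0.178 FPKM were near each other, without overlap. Ccnd1 at 0.172 ± 0.116 and Cdkn2a at 0.141 ± 0.119 FPKM were lowest in WT and overlapped.

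**Figure D1:**
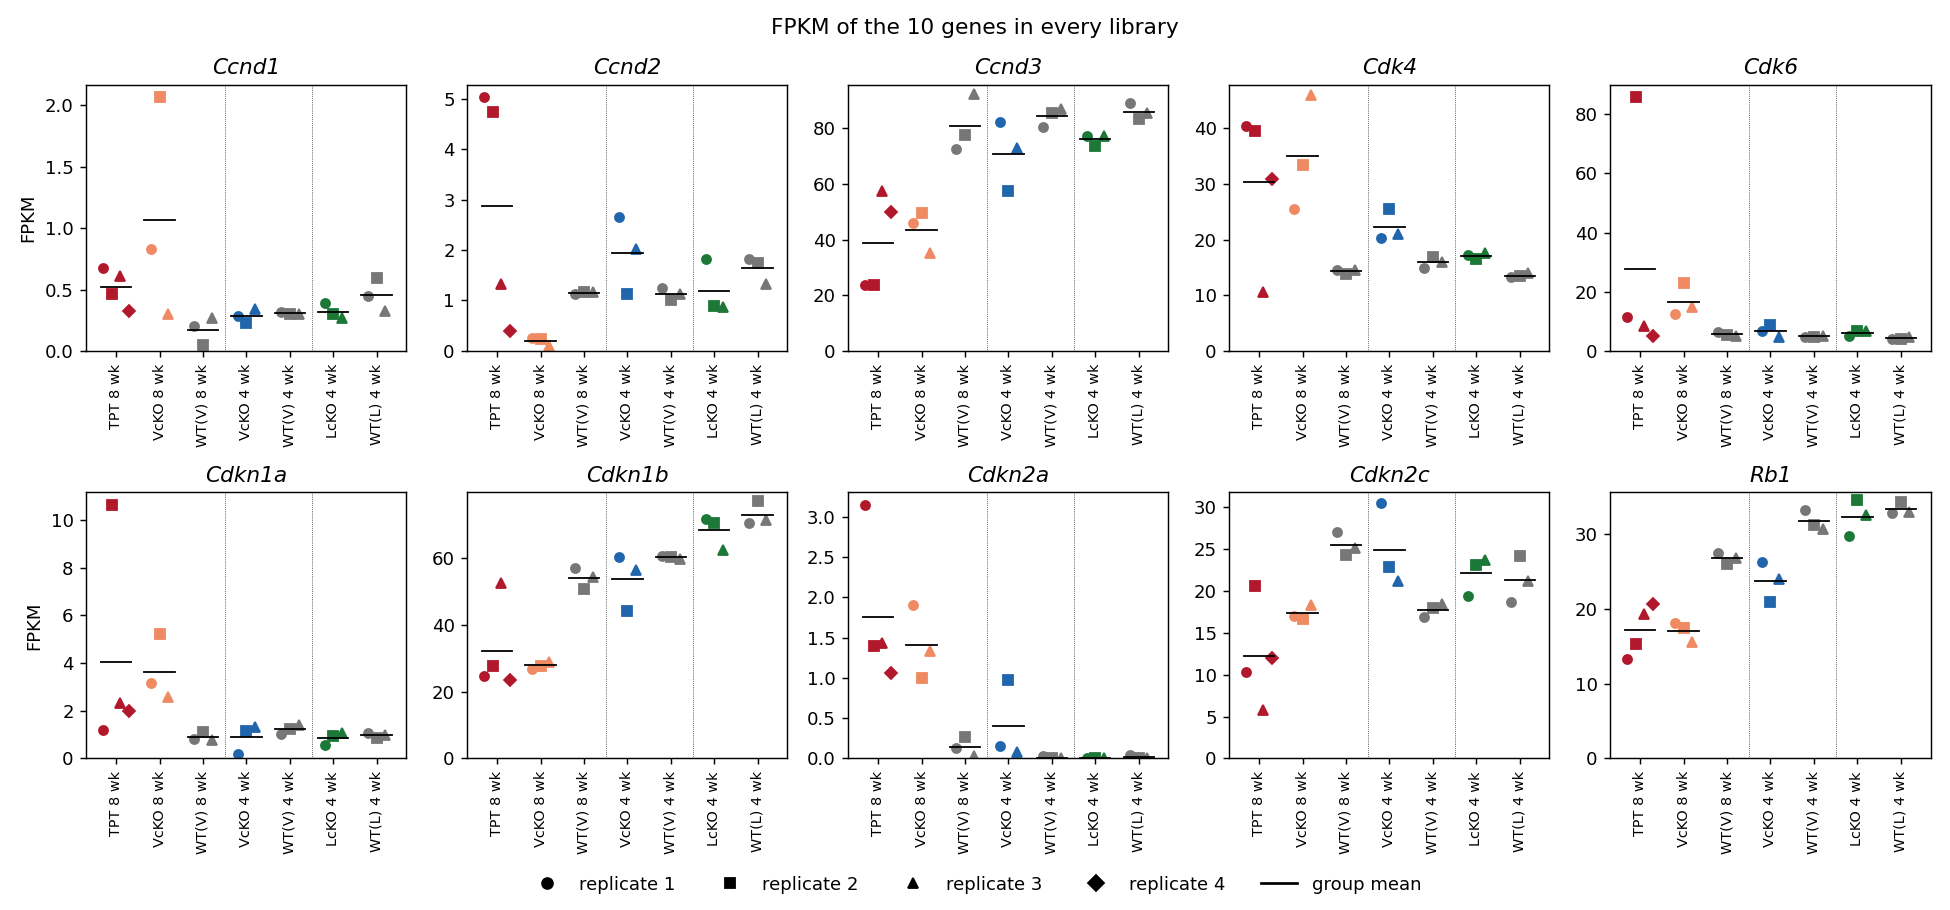
FPKM of the 10 genes (linear axes that start at 0) in each of the 22 libraries, by group, with TPT, VcKO and WT at 8 weeks on the left, VcKO and WT of the Vav line at 4 weeks in the middle, and LcKO and WT at 4 weeks on the right. Symbols are replicates and bars are group means; TPT replicate 2 is highest for Cdk6 at 85.8 and for Cdkn1a at 10.6 FPKM.

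At 8 weeks 9 of the 10 genes could be tested, and 2 were called in TPT against WT and 2 in VcKO against WT, in both cases Cdkn2a higher and Rb1 lower. Over all genes, 9.19% were called in TPT and 9.1% in VcKO. Cdkn2a passed the filter on low values only through the TPT and VcKO libraries, in which it is high. Each count therefore rests in part on a gene selected that way. At 4 weeks 8 could be tested in the Vav line and 2 were called, Cdk4 higher and Rb1 lower, where 13.7% of all genes were called. In the Lck line 7 could be tested and 1 was called, Cdk4 higher, where 1% of all genes were called. The 4-week calls of both lines and the 8-week calls of VcKO were lost when no filter on low values was used. TPT against VcKO called 0 of 9, as it called 0% of all genes, although 681 of 11632 had an unadjusted p under 0.05 with limma. Groups did not overlap for 6 of the 10 genes in TPT against WT (24.4% of all genes tested). They did not overlap for any of the 10 in VcKO against WT at 8 weeks, with 5 higher and 5 lower, but 57.6% of all genes tested did not overlap in that comparison. Non-overlap held for 4 of 10 in VcKO against WT at 4 weeks (37.8%), for 3 of 10 in LcKO against WT (20%) and for 1 of 10 in TPT against VcKO (5.99%). The shares cover tested genes only, whereas the counts include genes too low for the test. These were Ccnd1 in TPT and VcKO against WT at 8 weeks, and Cdkn2a in VcKO against WT at 4 weeks.

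Of the D cyclins, Ccnd3 was lower at 8 weeks in both TPT and VcKO, short of the threshold. Its FPKM was 23.6, 23.5, 57.5 and 50.1 in TPT, 45.9, 49.6 and 35.2 in VcKO, and 72.6, 77.7 and 92.2 in WT. Every TPT and every VcKO library lay below every WT library, and TPT replicates 1 and 2 lay lowest. The log2 difference was -1.15 ± 0.32 (SE) in TPT with an adjusted p of 0.0563, and -0.88 ± 0.34 in VcKO with an adjusted p of 0.129 (limma). Without TPT replicate 3 these were called, with adjusted p of 0.00786 in TPT and 0.0454 in VcKO; TPT was also called without replicate 4, at 0.049. At 4 weeks Ccnd3 read 82.1, 57.7 and 73.0 FPKM in VcKO against 80.7, 85.5 and 87.1 in WT, which overlapped. Between the ages, the VcKO effect at 8 weeks minus that at 4 weeks was -0.62, with an adjusted p of 0.0661, and was called without VcKO replicate 2 at 4 weeks or VcKO replicate 2 at 8 weeks (0.0221 to 0.0437). Ccnd3 read 77.2, 73.8 and 77.1 FPKM in LcKO against 89.2, 83.3 and 85.6 in WT, a narrow gap without overlap at an adjusted p of 0.157.

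Ccnd2, the cyclin that acts beside D3 in early thymocytes, lay below WT in VcKO libraries at 8 weeks and at or above it at 4 weeks. At 8 weeks it read 5.03, 4.73, 1.32 and 0.391 FPKM in TPT, 0.247, 0.244 and 0.0932 in VcKO, and 1.12, 1.17 and 1.16 in WT. VcKO libraries thus held Ccnd2 at 0.170 times the WT mean, while TPT libraries scattered on both sides of WT. The reads implied by these values were 10 to 27 per VcKO library and 72 to 140 per WT library, so the low VcKO level rests on few reads. On the log2(FPKM + 1) scale the difference of -0.85 ± 0.50 in VcKO was not called (adjusted p = 0.278 with limma). At 4 weeks the same gene read 2.67, 1.12 and 2.03 FPKM in VcKO against 1.25, 1.01 and 1.13 in WT, so 2 of 3 VcKO libraries exceeded every WT library, with an adjusted p of 0.203, or 0.0196 without VcKO replicate 2. The VcKO effect at 8 weeks minus that at 4 weeks was -1.28 ± 0.23 with an adjusted p of 0.0061 (limma), though Ccnd2 passed the filter at 8 weeks only through the 3 WT libraries. In that contrast 5 of 8 genes tested were called, where 18.2% of all genes were. It was fitted without the TPT libraries, whose scatter enters the 8-week comparisons, so its count of calls cannot be set against theirs. In LcKO Ccnd2 read 1.81, 0.895 and 0.878 FPKM against 1.83, 1.75 and 1.33 in WT, which overlapped. Every TPT library was above every VcKO library for Ccnd2, by 1.45 ± 0.46, with an adjusted p of 0.764 (limma). No other gene of the 10 separated TPT from VcKO. TPT replicates 1 and 2, highest in Ccnd2, were also the TPT libraries with the highest sums of early thymocyte and of mature T cell markers. The part of this in the Ccnd2 values was not tested.

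Ccnd1, the D cyclin least used in T lineage cells, stayed too low for the test everywhere. Its 8-week values were 0.679, 0.46, 0.606 and 0.323 FPKM in TPT, 0.83, 2.07 and 0.303 in VcKO, and 0.203, 0.0438 and 0.27 in WT. All TPT and VcKO libraries were above WT, but replicate 3 of VcKO by little, with 24 implied reads against 24 in the highest WT library. Fitted without the filter on low values the difference was 0.73 ± 0.27 in VcKO, with an adjusted p of 0.193 by limma. The 4-week libraries of all groups read between 0.229 and 0.597 FPKM. Ccnd3 made up 80.6% and 81.9% of the summed D cyclin FPKM in TPT replicates 1 and 2, in which Ccnd2 was high, and at least 95.5% in each of the other 20 libraries. The summed D cyclins were 42.1 ± 15.5 FPKM in TPT (n = 4), 44.8 ± 8.38 in VcKO and 82.2 ± 10.2 in WT (SD, n = 3 each).

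Cdk4, the kinase partner of the D cyclins, was higher in every VcKO, LcKO and TPT library apart from TPT replicate 3. The 8-week libraries held 40.5, 39.5, 10.6 and 30.9 FPKM in TPT, 25.5, 33.3 and 46.0 in VcKO, and 14.5, 13.8 and 14.5 in WT. Only TPT replicate 3 fell below the WT libraries. VcKO stood at 2.45 times the WT mean. The log2 difference of 0.88 ± 0.41 in TPT was not called (adjusted p = 0.210 with limma), nor was that of 1.20 ± 0.44 in VcKO (adjusted p = 0.113). Both were called without TPT replicate 3, with adjusted p of 0.00221 in TPT and 0.00353 in VcKO. Cdk4 lies on chromosome 10, and the median gene of that chromosome was 0.386 (log2) above its WT mean in VcKO replicate 3, the library with the highest Cdk4, while the other VcKO and TPT medians reached at most 0.0241.

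At 4 weeks Cdk4 read 20.3, 25.6 and 20.9 FPKM in VcKO against 14.9, 16.9 and 16.0 in WT. It rose by 0.45 ± 0.097 (adjusted p = 0.0284 with limma). In the Lck line it read 17.2, 16.4 and 17.6 FPKM in LcKO against 13.2, 13.4 and 13.9 in WT, and rose by 0.31 ± 0.045 (adjusted p = 0.0386). Groups did not overlap in either line, and the chromosome 10 median was highest in VcKO replicate 2, at 0.102. The Vav call was lost when VcKO replicate 3 or any 1 of the 3 WT libraries was left out, with adjusted p between 0.0628 and 0.105, and the Lck call when any 1 of the 6 libraries was left out, between 0.0918 and 0.194. Scaling libraries to the same FPKM sum also ended both calls, and median-of-ratios scaling that of the Lck line. For Cdk4 the VcKO effect at 8 weeks minus that at 4 weeks was 0.74 with an adjusted p of 0.0531, and was called without VcKO replicate 2 at 4 weeks or VcKO replicate 1 at 8 weeks (0.00907 to 0.0386). The Vav effect minus the Lck effect called 0 of 7 genes tested, where 3.3% of all genes were called. The exons of Cdk4 share 641 bases with Tspan31 on the other strand, and the sources used here do not say whether reads were counted by strand.

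Myc, named because of the CACGTG matches and after its values had been seen, read 23.0, 21.3, 1.47 and 9.35 FPKM in TPT, 13.7 to 16.5 in VcKO and 0.734 to 0.945 in WT at 8 weeks. At 4 weeks it read 3.56 to 6.49 FPKM in VcKO against 0.937 to 1.09 in WT, and 1.20 to 1.76 in LcKO against 0.692 to 1.16 in WT. Myc was lowest in the same TPT library as Cdk4. Myc lies on chromosome 15, which carries none of the 10 genes and whose median gene lay 0.516 to 0.575 (log2) above its WT mean in TPT, 0.567 to 0.716 in VcKO at 8 weeks and 0.252 to 0.303 in VcKO at 4 weeks. The part of Myc in the Cdk4 values was not tested.

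Cdk6, the second D cyclin kinase, was higher in all 3 VcKO libraries and extreme in 1 TPT library. At 8 weeks it read 11.3, 85.8, 8.53 and 5.18 FPKM in TPT, 12.5, 22.8 and 14.7 in VcKO, and 6.37, 5.53 and 5.15 in WT. TPT replicate 4 lay among the WT libraries and TPT replicate 2 lay far above all others. The differences of 1.25 ± 0.75 in TPT (adjusted p = 0.323 with limma) and 1.36 ± 0.80 in VcKO (adjusted p = 0.284) were not called. Without TPT replicate 2, whose spread enters the shared fit, VcKO was called at an adjusted p of 0.0211, and the TPT difference was 0.43 with an adjusted p of 0.387. At 4 weeks Cdk6 read 6.59, 8.82 and 4.54 FPKM in VcKO against 4.80, 4.73 and 5.09 in WT, which overlapped, and 5.15, 6.88 and 6.57 in LcKO against 4.00, 4.07 and 4.53 in WT, which did not (adjusted p = 0.132, or 0.046 without LcKO replicate 1). The VcKO effect at 8 weeks exceeded that at 4 weeks by 1.02 ± 0.31 (adjusted p = 0.0463); leaving out any 1 of 10 of the 12 libraries, all but VcKO replicate 2 at 4 weeks and VcKO replicate 1 at 8 weeks, gave adjusted p between 0.0555 and 0.0982. A pseudocount of 0.1, no filter on low values or scaling to the same sum also ended this call (0.0509 to 0.115).

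The high Cdk6 in TPT replicate 2 ranked 37 among 11632 genes by log2 rise over the WT mean. Genes within 2000 kb of it did not stand out alike. Among them Fam133b (37.4 FPKM, against 30.0 to 34.5 in WT) and Cyp51 (10.4, against 2.54 to 2.92) were higher in that library than in any other 8-week library. Cyp51, an enzyme of cholesterol synthesis, also read 8.13 FPKM in TPT replicate 1. The median gene of chromosome 5 lay between -0.0363 and 0.0361 (log2) of its WT mean in the TPT libraries.

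**Figure D2:**
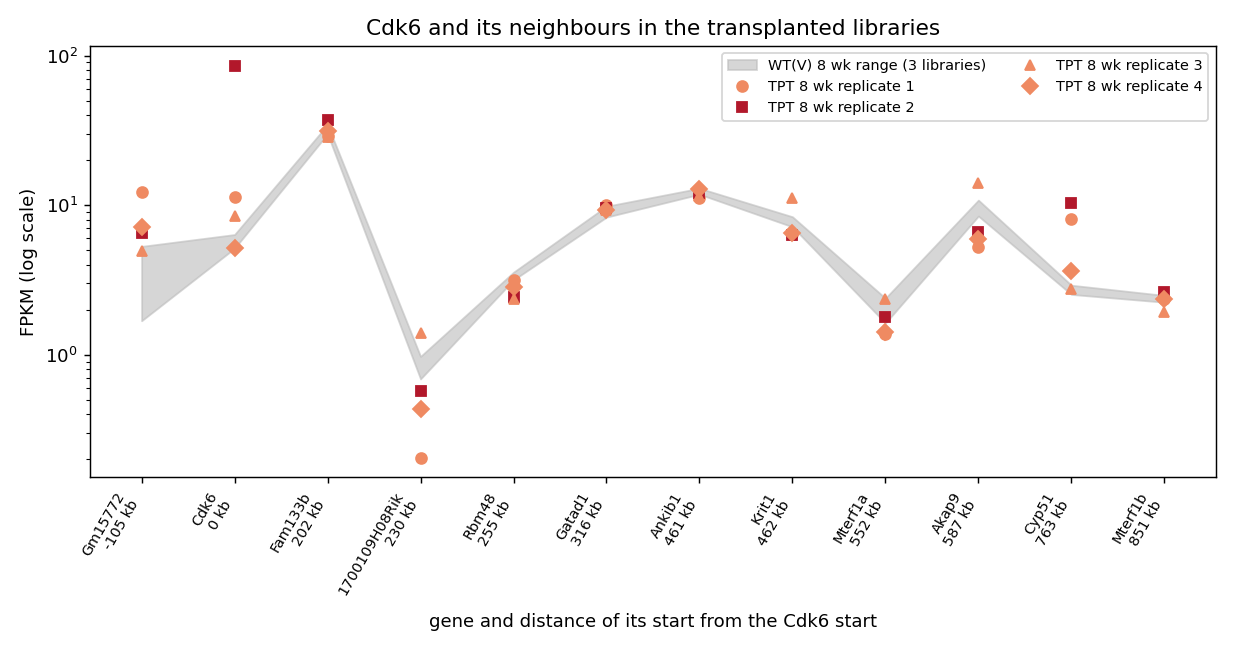
FPKM (log axis) of Cdk6 and genes near it, in order of the distance of their starts from the Cdk6 start in kb, for each TPT library (points) and the range of the 3 WT libraries at 8 weeks (grey band). TPT replicate 2, drawn as a dark square, reads 85.8 FPKM at Cdk6 and lies near the band at most of the other genes, with Cyp51 at 10.4 above it.

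Summed Cdk4 and Cdk6 made 51.8, 125.3, 19.2 and 36.1 FPKM in TPT and 38.0 to 60.7 in VcKO, against 19.3 to 20.9 in WT at 8 weeks. At 4 weeks the sum was 25.5 to 34.4 FPKM in VcKO against 19.7 to 21.6 in WT, and 22.4 to 24.1 in LcKO against 17.2 to 18.5 in WT. The sum was above every WT library of its table in all knockout libraries except TPT replicate 3. No share over other pairs of genes was taken for such sums. Set over the summed D cyclins, the kinases stood at 1.79 ± 1.82 in TPT and 1.20 ± 0.461 in VcKO, against 0.246 ± 0.0363 in WT (SD, n = 4, 3 and 3).

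Cdkn1b, the CIP/KIP inhibitor p27 that holds resting thymocytes in G1, stood at 0.515 times the WT mean in VcKO cells at 8 weeks and at 0.892 times it at 4 weeks. At 8 weeks the libraries read 24.7, 27.8, 52.6 and 23.4 FPKM in TPT, 26.8, 27.8 and 29.0 in VcKO, and 57.2, 50.9 and 54.3 in WT. TPT replicate 3 alone lay among the WT libraries. The difference was -0.81 ± 0.24 in TPT (adjusted p = 0.0703 with limma) and -0.93 ± 0.26 in VcKO (adjusted p = 0.0559), and without TPT replicate 3 both were called, with adjusted p of 0.000241 in TPT and 0.000453 in VcKO; VcKO was also called without TPT replicate 1, at 0.0498. In the 4-week libraries it read 60.5, 44.2 and 56.6 FPKM in VcKO against 60.7, 60.3 and 59.8 in WT, and 71.9, 70.6 and 62.6 in LcKO against 70.5, 77.1 and 71.4 in WT. Both pairs overlapped. The VcKO effect at 8 weeks was lower than that at 4 weeks by -0.76 ± 0.14 (adjusted p = 0.0064 with limma), and this was called under all 18 settings run. Chromosome 6 carries Cdkn1b and Ccnd2. Its median gene lay at -0.116 to -0.0589 (log2) relative to its WT mean in TPT and at -0.135 to -0.11 in VcKO at 8 weeks. In VcKO at 4 weeks it lay at -0.0602 to -0.0434.

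The ratio of Cdkn1b to Cdk4 sets inhibitor and kinase side by side. It was 0.610, 0.704, 4.95 and 0.758 in TPT and 0.632 to 1.05 in VcKO, against 3.70 to 3.94 in WT at 8 weeks. At 4 weeks it was 1.73 to 2.98 in VcKO against 3.57 to 4.06 in WT, and 3.57 to 4.30 in LcKO against 5.12 to 5.76 in WT. The ratio was below every WT library of its table in all knockout libraries except TPT replicate 3, which was above them. It restates values given above, and no share over other pairs of genes was taken. At 4 weeks Cdkn1b itself overlapped WT in both lines, while Cdk4 did not.

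**Figure D3:**
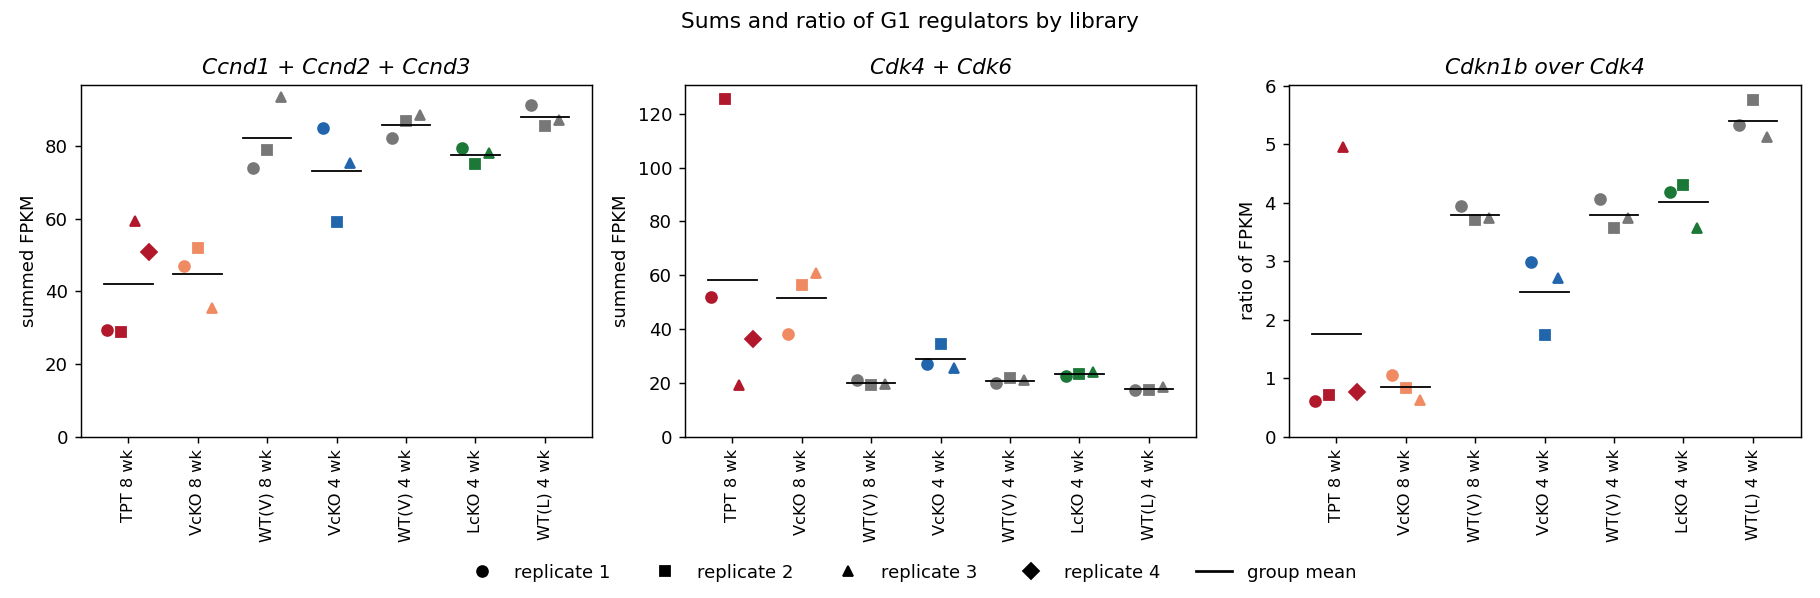
Summed FPKM of the D cyclins (left), summed FPKM of Cdk4 and Cdk6 (middle) and the ratio of Cdkn1b to Cdk4 (right) in each library, on linear axes from 0, with bars at group means. TPT replicate 3, a triangle, has a ratio of 4.95, while the other TPT and all VcKO libraries at 8 weeks lie at 1.05 or below.

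Cdkn1a, the p53-responsive inhibitor p21, was low in WT and higher in TPT and VcKO at 8 weeks. It read 1.21, 10.6, 2.32 and 1.97 FPKM in TPT, 3.15, 5.21 and 2.55 in VcKO, and 0.826, 1.10 and 0.769 in WT. No TPT or VcKO library fell into the WT range, though TPT replicate 1 came close to it, and replicate 2 was highest for both Cdkn1a and Cdk6. Implied reads were 58 to 732 in TPT, 169 to 263 in VcKO and 42 to 57 in WT. The differences of 1.07 ± 0.49 in TPT (adjusted p = 0.203 with limma) and 1.25 ± 0.53 in VcKO (adjusted p = 0.153) were not called; without TPT replicate 2 VcKO was called at 0.0156 and the TPT difference was 0.56. At 4 weeks it read 0.193, 1.15 and 1.32 FPKM in VcKO against 1.02, 1.23 and 1.42 in WT, and 0.551, 0.934 and 1.07 in LcKO against 1.06, 0.871 and 0.99 in WT, without enough libraries at 1 FPKM for a test in the Lck line. The VcKO effect at 8 weeks exceeded that at 4 weeks by 1.54 ± 0.36 (adjusted p = 0.0170). At 8 weeks, however, Cdkn1a passed the filter only through the groups in which it is high, with 1 of 3 WT libraries at 1 FPKM or more.

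Cdkn2a, which codes for INK4A and for the p53 activator ARF, is normally nearly silent in thymocytes and is often deleted in T cell leukaemia. Libraries of the 8-week groups held 3.15, 1.40, 1.43 and 1.06 FPKM in TPT, 1.91, 0.996 and 1.34 in VcKO, and 0.13, 0.264 and 0.0272 in WT. Every TPT and VcKO library was above every WT library, with 30 to 75 implied reads in TPT and 25 to 64 in VcKO against 1 to 5 in WT. The mean was 12.5 times WT in TPT and 10.1 times WT in VcKO. Cdkn2a rose by 1.23 ± 0.25 in TPT (adjusted p = 0.0181 with limma) and by 1.07 ± 0.27 in VcKO (adjusted p = 0.0391). It passed the filter on low values only through the groups in which it is high. The TPT call was lost without any 1 of the 3 WT libraries, with adjusted p between 0.0749 and 0.0947, and the VcKO call without any 1 of the 3 VcKO or 3 WT libraries, between 0.0663 and 0.143.

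At 4 weeks Cdkn2a read 0.158, 0.974 and 0.0803 FPKM in VcKO, which is 9, 53 and 5 implied reads, against 0.0336, 0 and 0 in WT. VcKO replicate 2 was thus near the level of 8-week knockouts, and it was also the VcKO library with the highest Cdk4 and Cdk6 and the lowest Cdkn1b and Rb1. Fitted without the filter, the difference was 0.42 ± 0.24 with an adjusted p of 0.412 (limma). All 3 LcKO libraries were listed at 0, against 0.0369, 0 and 0 FPKM in WT. A count of 0 allows up to 3 reads, which is 0.123, 0.313 and 0.113 FPKM in the LcKO libraries (counting error only).

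Cdkn2c, the INK4 inhibitor p18, was lower than WT at 8 weeks in both knockout groups, without a call, and higher in VcKO at 4 weeks. Its 8-week FPKM was 10.3, 20.5, 5.78 and 12.01 in TPT, 16.95, 16.7 and 18.3 in VcKO, and 27.0, 24.3 and 25.1 in WT. All TPT and VcKO libraries lay below WT. The differences were -1.13 ± 0.31 in TPT (adjusted p = 0.0530 with limma) and -0.53 ± 0.33 in VcKO (adjusted p = 0.307). TPT was called without TPT replicate 2 or 3 (0.00718 to 0.0166), with libraries scaled to the same sum (0.0261) and under median-of-ratios scaling (0.0429). The 4-week values were 30.5, 22.8 and 21.2 FPKM in VcKO against 16.9, 17.9 and 18.4 in WT, so that all VcKO libraries lay above WT, with a difference of 0.45 ± 0.13 (adjusted p = 0.0713, or 0.0442 without VcKO replicate 1). In LcKO it read 19.4, 23.1 and 23.7 FPKM against 18.7, 24.2 and 21.1 in WT, which overlapped. The VcKO effect at 8 weeks was lower than that at 4 weeks by -0.98 ± 0.16 (adjusted p = 0.0038 with limma), and this was called under all 18 settings run. WT itself averaged 17.7 FPKM at 4 weeks and 25.5 at 8 weeks, and VcKO 24.8 and 17.3. Both groups thus differed between the tables, and age and table cannot be told apart.

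Rb1, whose product is the substrate of the D cyclin kinases and the brake on E2F, fell at both ages in the Vav line. At 8 weeks it read 13.3, 15.2, 19.4 and 20.6 FPKM in TPT, 18.0, 17.4 and 15.6 in VcKO, and 27.4, 26.0 and 26.8 in WT. Every knockout library was below every WT library, by -0.63 ± 0.15 in TPT (adjusted p = 0.0314 with limma) and -0.63 ± 0.16 in VcKO (adjusted p = 0.0425). The TPT call was lost without any 1 of the 3 WT libraries, VcKO replicate 1 or 2, or TPT replicate 2 (adjusted p between 0.0519 and 0.132), and the VcKO call without any 1 of the 3 VcKO or 3 WT libraries (0.0991 to 0.153). Scaling libraries to the same sum ended both, and fitting only TPT and WT ended that of TPT (adjusted p = 0.0829). The median gene of chromosome 14, which carries Rb1, lay at -0.247 to -0.127 (log2) relative to its WT mean in TPT and at -0.140 to -0.0462 in VcKO.

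At 4 weeks Rb1 read 26.2, 20.8 and 23.9 FPKM in VcKO against 33.2, 31.1 and 30.6 in WT, and fell by 0.41 ± 0.088 on the log2 scale (adjusted p = 0.0283 with limma). That call was lost without VcKO replicate 3 or any 1 of the 3 WT libraries (0.0784 to 0.105). In LcKO it read 29.7, 34.5 and 32.5 FPKM against 32.8, 34.2 and 32.9 in WT, which overlapped. The Vav effect minus the Lck effect was -0.36, with an adjusted p of 0.110, or 0.041 without VcKO replicate 1, and the VcKO effect at 8 weeks minus that at 4 weeks was -0.22, with an adjusted p of 0.221, and neither difference was called. Exons of Rb1 overlap Lpar6 and Rcbtb2 on the other strand, and those of Ccnd3 overlap Bysl.

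**Figure D4:**
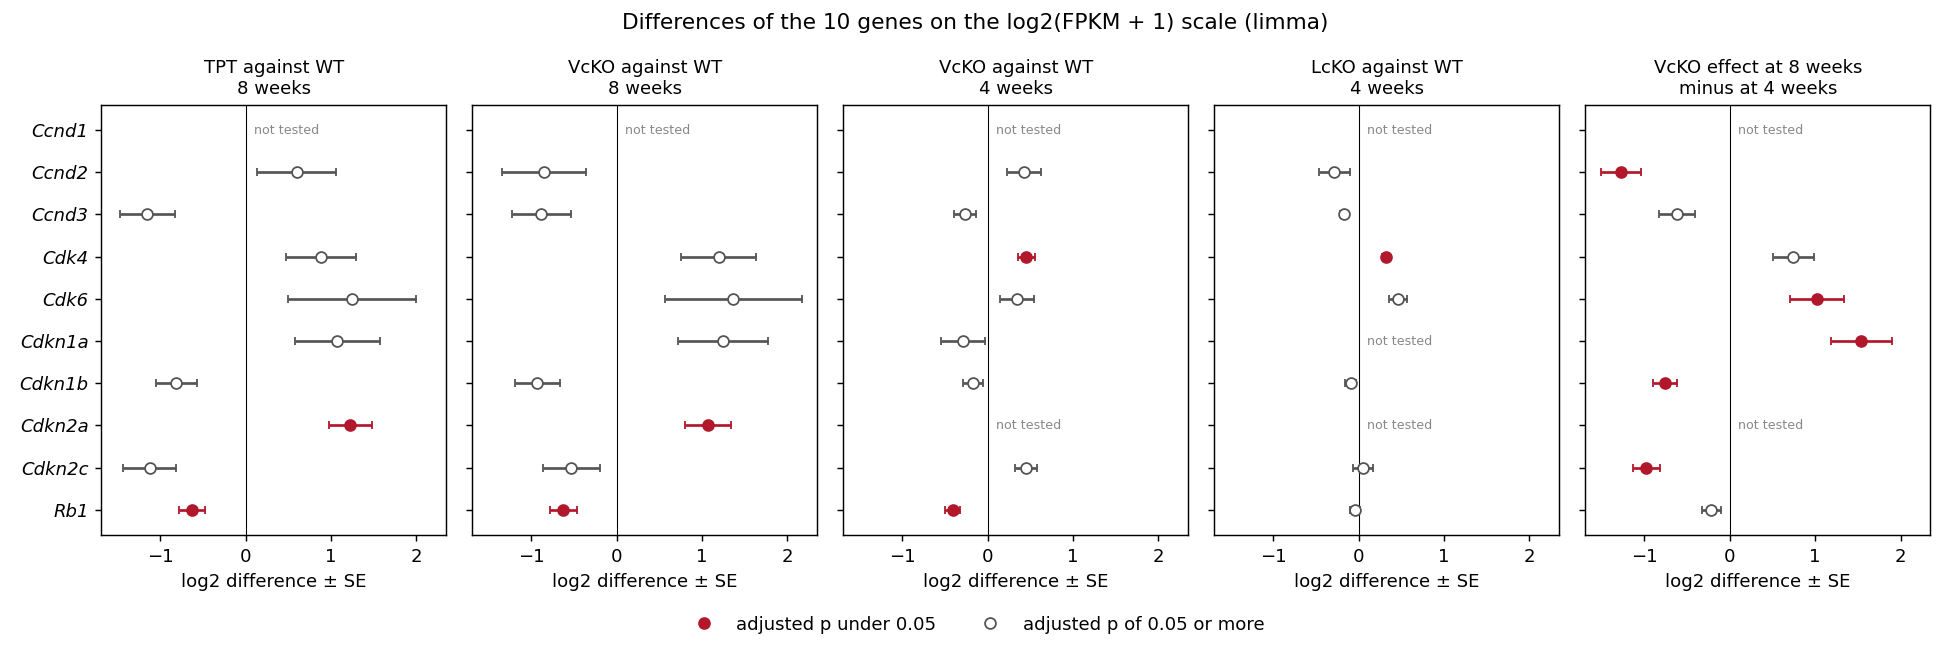
Log2 differences of the 10 genes on the log2(FPKM + 1) scale with standard errors from limma, in TPT against WT and VcKO against WT at 8 weeks, VcKO against WT and LcKO against WT at 4 weeks, and the VcKO effect at 8 weeks minus that at 4 weeks. Filled points have an adjusted p under 0.05: Cdkn2a and Rb1 at 8 weeks, Cdk4 and Rb1 in VcKO and Cdk4 in LcKO at 4 weeks, and Ccnd2, Cdk6, Cdkn1a, Cdkn1b and Cdkn2c between the ages.

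TPT replicate 3 and the shape of the 8-week fit bear on these counts. With only VcKO and WT in the fit, 8 of the 10 genes were called, all but Ccnd1 and Cdkn2a, which were not tested there, and 45.7% of all genes were called. Without TPT replicate 3, 6 of the 10 genes were called in TPT against WT, where 33.2% of all genes were called. Ccnd3, Cdkn1b, Cdkn2c and Rb1 were lower and Cdk4 and Cdkn2a higher. Cdkn2a again passed the filter only through the groups in which it is high.

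The wider pathway was followed in lists of genes that hold none of the 10. Among 3 other genes tested that are named as CDK inhibitors, 2 fell in TPT and 1 in VcKO at 8 weeks. Over all genes 9.19% were called in TPT and 9.1% in VcKO. Cdkn2d, which codes for the INK4 inhibitor p19INK4D, fell by 1.35 on the log2 scale in TPT (adjusted p = 0.0035 with limma). In VcKO it fell by 1.11 (adjusted p = 0.0131). Cdkn3, which is of neither the INK4 nor the CIP/KIP family, fell by 1.27 in TPT (adjusted p = 0.0192). Cdkn2d read 35.8, 34.8, 57.7 and 41.1 FPKM in TPT, 53.5, 39.3 and 56.1 in VcKO, and 110, 102 and 109 in WT, so it was more abundant than Cdkn2c in WT. At 4 weeks 1 of 3 fell in VcKO, Cdkn3, and 0 in LcKO, with a list median of -0.05 (log2), where 13.7% of all genes were called in VcKO and 1% in LcKO. Between the ages the VcKO effect on Cdkn1c, which codes for p57, differed by 1.24 and that on Cdkn2d by -0.71. Of all genes, 18.2% were called in that contrast. At 8 weeks Cdkn1c passed its filter only through the VcKO libraries, in which it is high. It read 2.566 to 3.875 FPKM there against 0.2234 to 0.7567 in WT.

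Of 6 genes of cyclin E and CDK2, 1 rose in each 4-week comparison, Cks1b, an adaptor of CDK complexes, by 0.53 in VcKO and 0.28 in LcKO (adjusted p = 0.0144 and 0.0422 with limma), and 0 were called at 8 weeks, where the list median was 0.25 in TPT and 0.25 in VcKO. Over all genes 13.7% were called in VcKO and 1% in LcKO at 4 weeks, so that 1 of 6 in VcKO is near the share of all genes. Cks1b read 33.4, 33.3 and 30.7 FPKM in VcKO against 19.3, 23.5 and 24.0 in WT. It read 26.6, 26.2 and 27.7 FPKM in LcKO against 22.4, 21.9 and 21.6 in WT.

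Of 12 pocket protein and E2F genes, E2f2 was the 1 called in all 4 comparisons with WT, each time lower. Of all genes, 9.19% were called in TPT, 9.1% in VcKO at 8 weeks, 13.7% in VcKO at 4 weeks and 1% in LcKO. It read 18.2, 17.04, 8.89 and 45.2 FPKM in TPT, 39.3, 23.9 and 43.1 in VcKO, and 135, 119 and 135 in WT at 8 weeks, a difference of -2.71 ± 0.44 in TPT (adjusted p = 0.0063 with limma) and -1.88 ± 0.47 in VcKO (adjusted p = 0.0384). The 4-week values were 90.2, 54.0 and 75.4 FPKM in VcKO against 132, 141 and 145 in WT, and 103, 103 and 101 in LcKO against 139, 133 and 133 in WT, with differences of -0.95 (adjusted p = 0.0179) and -0.40 (adjusted p = 0.0149). E2f4, a partner of the pocket proteins in resting cells, fell by 0.79 in VcKO at 8 weeks and by 0.42 at 4 weeks, and E2f6 rose by 0.45 in VcKO at 4 weeks.

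Of 18 S phase genes known as E2F targets, 0 were called at 8 weeks in TPT or in VcKO. The list median was 0.39 in TPT and 0.73 in VcKO, against -0.0063 in TPT and -0.0049 in VcKO over all genes tested. Their summed level was 260.2 to 1122 FPKM in TPT and 897 to 951 FPKM in VcKO against 607 to 661 in WT. At 4 weeks the list median was 0.15 in VcKO and 0.20 in LcKO, and 0 were called in LcKO, where 1503 of all genes tested had an unadjusted p under 0.05 with limma. The VcKO effect at 8 weeks minus that at 4 weeks was called higher for 13 of 18 and lower for 0, where 18.2% of all genes were called in either direction, with a list median of 0.55 against -0.0172 over all genes tested. The smallest p-values were those of the helicase subunits Mcm7 (0.56) and Mcm6 (0.91), the polymerase gene Pola1 (0.62) and the chromatin assembly gene Chaf1a (0.66). That contrast was fitted without the TPT libraries, whose scatter enters the 8-week comparisons. The SE of Mcm6 was 0.143 in it and 0.547 in VcKO against WT at 8 weeks. Counts of calls in these fits therefore cannot be set against each other as an effect of age. Mcm6 read 80.3, 76.3, 13.9 and 62.0 FPKM in TPT, 71.4, 75.0 and 81.6 in VcKO, and 33.9, 31.3 and 31.7 in WT.

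Of 11 p53 target genes tested at 8 weeks, 1 was called in each comparison, Bax, a promoter of apoptosis, higher by 0.70 in TPT (adjusted p = 0.0258 with limma) and by 0.79 in VcKO (adjusted p = 0.0234). That count is near the share called over all genes, 9.19% in TPT and 9.1% in VcKO. Bax read 86.0, 66.3, 54.6 and 58.5 FPKM in TPT, 77.0, 67.5 and 64.1 in VcKO, and 40.4, 38.4 and 40.4 in WT. The list medians were 0.28 in TPT and 0.03 in VcKO. At 4 weeks 2 of 12 rose in VcKO (Trp53 and Aen), 1 fell (Fas), and 0 were called in LcKO, with a median of 0.01, where 13.7% of all genes were called in VcKO and 1% in LcKO. Trp53 codes for p53 itself rather than a target, and is counted among the 11 and the 12.

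For the 3 genes called in at least 2 comparisons with WT, the genes with the most similar pattern were sought by the root mean square difference of their log2 deviations from WT over the 22 libraries, among 6311 genes with a mean of at least 5 FPKM. Among the nearest to Cdk4 were Eef1a1 (0.128), a translation elongation factor, and Rpsa (0.129), a ribosomal protein gene, where Cdk4 itself deviated by 0.706. Nearest to Rb1 were Kat6a (0.0985), Slc23a2 (0.111) and Synrg (0.112), with a deviation of 0.406 for Rb1. Cdkn2a was matched less closely, by Adcy7 (0.199), Atp8a1 (0.215) and Swap70 (0.228), with a deviation of 0.714. Libraries of 1 table share their WT means, and these values are a description.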

How the data were processed

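Per the labels' protocols, RNA came from RNeasy mini columns and libraries from a NuGEN Ovation Ultralow kit. The files deposited by the authors hold FPKM per gene, in 3 tables. The submitters' processing notes name Trimmomatic 0.33, STAR, HTSeq 0.6.1, DESeq2 and the build mm10, with no role or order. Annotation, gene lengths and strand are not given in the sources used here. Symbols came from GENCODE M21 (42462 of 43430 identifiers) and promoters from RefSeq (7 of 10 genes). 0 columns of sample values were unused.

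FPKM keep no counts: 47.7% to 56.8% of low values were whole reads within 0.03, too few for a count test. limma 3.58.1 (trend, R 4.3.3) was run on log2(FPKM + 1) for genes at 1 FPKM or above in 3 or more libraries of every table fitted, and was tested on simulated data. The 8-week comparisons used 1 fit of 10 libraries, and each difference of effects an interaction over 12. Alternatives were a pseudocount of 0.1, no filter, 2 scalings, a replicate block, only 2 groups in the fit, and leaving out each library. Genes and lists were chosen with earlier results of these data known. All 10 genes are named; of other lists, called members are counted and up to 4 with the smallest adjusted p named. A few genes are not reported here.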

Additional observations from a re-analysis of the deposited data

Results flagged for a closer look

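In 3 cases 1 TPT library stood apart from the other 3 by Dixon's test on FPKM (critical value 0.829 for 4 libraries). The test was not run on the log2(FPKM + 1) scale of the other tests, on which a single high value stands out less. Chance flags about 1 in 20 groups, and 10 genes were examined. Cdk6 read 85.81 FPKM in TPT replicate 2, with a gap of 0.924 of the group's range. Cdkn1a read 10.62 FPKM in the same library (0.882). Cdkn1b read 52.59 FPKM in TPT replicate 3 (0.85), among the WT values.

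The VcKO effect was called different between 8 and 4 weeks for 5 of 8 genes tested in limma's interaction test, where 18.2% of all genes were called. Differences are in log2 units of 8 weeks minus 4 weeks. The ages came in separate tables, so age and table cannot be told apart. The difference was -1.277 for Ccnd2 (adjusted p = 0.0061), -0.7572 for Cdkn1b (0.0064), 1.541 for Cdkn1a (0.0170), -0.9777 for Cdkn2c (0.0038) and 1.022 for Cdk6 (0.0463). At 8 weeks Ccnd2 passed the filter only through the WT libraries, and Cdkn1a only through the libraries in which it is high. The Cdk6 call was lost in 10 of 12 fits that each left out a library.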

How the results depend on the processing

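Of the 10 genes, 2 were called in VcKO against WT at 4 weeks, and 0 without the filter, 1 with libraries scaled to the same sum, and 0 to 3 without 1 library. For LcKO the 1 call became 0 without the filter and under both scalings, and 0 to 1 without 1 library. For VcKO at 8 weeks the 2 calls became 0 without the filter, 1 at the same sum, 8 with only the 2 groups compared, and 0 to 5 without 1 library. For TPT against WT they became 1 with only the 2 groups compared and 0 to 6 without 1 library. TPT against VcKO gave 0 throughout, the Vav effect minus the Lck effect 0 to 1, and the 8-week minus the 4-week effect 3 to 7 against 5. The cause was not tested. The same-sum scaling lowered the median of all genes at 8 weeks to -0.124 in VcKO and -0.0977 in TPT, and took the share of calls that were higher at 4 weeks to 37.5% in VcKO, against 55.7%.

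Replicate numbers did not pair libraries: same-number correlations ran between -0.109 and 0.181. With a replicate block, 0 genes were called in LcKO, 0 in VcKO at 8 weeks and 1 in TPT against WT, and the number of all genes called became 894 against 1484 in VcKO at 4 weeks, 4 against 110 in LcKO, 568 against 1059 in VcKO at 8 weeks, 568 against 1069 in TPT, 148 against 348 for Vav minus Lck and 1178 against 1913 between ages. The block also ended the Cdk6 call between the ages (adjusted p = 0.0824) and turned Cdk6 in TPT against VcKO to 0.34.

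Other signs that turned belonged to differences that were not called. At the same sum Cdkn2c in LcKO became -0.0362 and Rb1 in TPT against VcKO 0.0251. Without 1 library, differences that turned covered the following log2 ranges. Cdkn1a ran between -0.468 and 0.0111 in VcKO against WT at 4 weeks. In LcKO against WT, Cdkn2c ran between -0.039 and 0.140 and Rb1 between -0.0966 and 0.00707. In TPT against VcKO the ranges were -0.516 to 0.109 for Cdk4, -0.933 to 0.338 for Cdk6, -0.690 to 0.108 for Cdkn1a, -0.137 to 0.240 for Cdkn1b, -0.0577 to 0.2997 for Cdkn2a and -0.0982 to 0.1003 for Rb1. For the Vav minus the Lck effect they were -0.199 to 0.0525 for Ccnd3, -0.320 to 0.0936 for Cdk6 and -0.170 to 0.0521 for Cdkn1b. Ccnd2 could not be tested between the ages without any 1 of the 3 WT libraries at 8 weeks, since too few libraries passed the filter. Depth limits Ccnd1, Ccnd2, Cdkn1a and Cdkn2a most, with few implied reads in some libraries.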
